A study of Mus musculus with 8 samples.

Results

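The expression of 10 antioxidant genes that the transcription factor NRF2 is known to control was described in bulk RNA-seq of 8 MC38 tumors, 4 exposed to violet light and 4 not exposed. The genes were Hmox1, Nqo1, Gclc, Gclm, Txnrd1, Srxn1, Slc7a11, Prdx1, Gsr and Osgin1. The list was written from the known biology of the pathway, with earlier results of these data known. All 10 were among the 24421 genes of the count table and all 10 passed the expression filter, which left 14468 genes for testing. The question was whether light itself changed the tumors, and these genes address the part of it that concerns oxidative stress.

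MC38 is a colon adenocarcinoma line of mouse origin. Kaede, a fluorescent protein, turns from green to red under violet light. All mice were female C57BL/6 Kaede animals, 9 weeks old when they were injected with 250000 MC38 cells. In the photoconverted group, tumors of about 5 mm in diameter received 405-nm light through the skin for 3 min on day 10, whereas control tumors received none, and all tumors were collected 5 h after the light exposure. Both groups thus carried the same host transgene and the same tumor line, and each group held 4 mice. The samples were whole tumors, so that fewer cells of a type and less RNA per cell cannot be told apart in any value below. The 8 epithelial genes fixed as markers of a carcinoma (such as Krt8, Epcam and Cdh1) were near 0, with a summed level of 3.54 to 6.30 CPM (a gene's counts scaled to the size of the library), and 2 of them passed the expression filter.

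NRF2, encoded by Nfe2l2, is held at low levels by KEAP1, which marks it for degradation. Oxidants and electrophiles modify cysteines of KEAP1, after which NRF2 accumulates, pairs with small MAF proteins and binds the antioxidant response element (ARE) of its targets, a site that BACH1 can occupy as a repressor. The targets supply glutathione, regenerate thioredoxin and peroxiredoxins, and detoxify quinones and heme. Intense visible light of short wavelength can generate reactive oxygen species through cellular chromophores, and tumor cells and macrophages both use this program.

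RefSeq promoter windows of build GRCm38.p6, from 250 bases before to 50 bases after an annotated start site, were at hand for 7 of the 10 genes, in 9 windows. The ARE core TGACNNNGC was searched on both strands and was found in 4 of the 9 windows, of 4 genes (Prdx1, Gclm, Srxn1 and Txnrd1), while 12.4% of all 32851 windows held it. These 4 windows are printed to show where the letters of the core lie in targets of the glutathione arm (Gclm) and the thioredoxin arm (the other 3). Prdx1 lies at chr4:116685349-116685648 (plus strand), Gclm at chr3:122245307-122245606 (plus strand), Srxn1 at chr2:152105274-152105573 (plus strand) and the Txnrd1 window, at a start site inside the annotated span of the gene, at chr10:82858956-82859255 (plus strand). Capitals mark the ARE core, which in all 4 windows was read on the opposite strand.
Prdx1: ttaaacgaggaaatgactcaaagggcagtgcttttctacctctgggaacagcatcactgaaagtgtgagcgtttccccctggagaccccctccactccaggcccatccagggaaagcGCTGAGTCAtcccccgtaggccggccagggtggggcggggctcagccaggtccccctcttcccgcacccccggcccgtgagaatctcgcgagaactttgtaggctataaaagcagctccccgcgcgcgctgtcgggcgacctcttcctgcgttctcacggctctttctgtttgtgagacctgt
Gclm: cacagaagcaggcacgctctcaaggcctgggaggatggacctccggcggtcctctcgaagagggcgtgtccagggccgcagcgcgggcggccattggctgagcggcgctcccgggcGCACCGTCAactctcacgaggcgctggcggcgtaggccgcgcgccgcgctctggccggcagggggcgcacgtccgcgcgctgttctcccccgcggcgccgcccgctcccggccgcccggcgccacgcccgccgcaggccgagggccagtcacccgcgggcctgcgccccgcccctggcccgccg
Srxn1: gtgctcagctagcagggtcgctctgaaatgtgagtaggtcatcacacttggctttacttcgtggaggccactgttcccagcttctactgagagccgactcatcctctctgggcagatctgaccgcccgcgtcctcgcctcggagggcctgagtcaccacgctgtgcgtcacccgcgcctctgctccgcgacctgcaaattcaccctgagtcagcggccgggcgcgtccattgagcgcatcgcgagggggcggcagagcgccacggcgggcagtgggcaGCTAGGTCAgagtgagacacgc
Txnrd1: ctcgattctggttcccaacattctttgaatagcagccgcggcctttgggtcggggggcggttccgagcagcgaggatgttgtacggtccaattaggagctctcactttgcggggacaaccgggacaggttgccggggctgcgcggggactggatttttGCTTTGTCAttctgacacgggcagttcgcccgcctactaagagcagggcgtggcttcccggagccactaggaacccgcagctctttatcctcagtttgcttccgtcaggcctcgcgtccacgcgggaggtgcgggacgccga

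Counted from 0 at the start site, the ARE core spanned positions -133 to -125 in Prdx1, -134 to -126 in Gclm, 28 to 36 in Srxn1 and -92 to -84 in Txnrd1. The AP-1 site TGANTCA, which FOS and JUN proteins bind, was found in 3 of the 9 windows (Srxn1, Prdx1 and Osgin1), against 7.81% of all windows. In Prdx1 one of the AP-1 sites, from -131 to -125, overlapped the ARE core. No window of the 7 genes held the heat shock element GAANNTTC, which 7.80% of all windows held. The windows of Nqo1 and Slc7a11 held none of these motifs, and Hmox1, Gclc and Gsr had no window to search. A match of letters is a description and shows no binding.

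The libraries differed in ways that bear on every value below. The photoconverted libraries held 16735293 to 35844417 counts and the control libraries 12576615 to 29439901. The share of counts on Rn45s, the precursor of ribosomal RNA, was between 2.70% and 9.65% in 5 tumors, and it was 21.9% in photoconverted tumor 4, 35.7% in control tumor 2 and 23.2% in control tumor 4. Control tumor 2 also stood apart in the summed level of 5 fibroblast genes, 7336 CPM against 1576 to 2204 CPM in the other tumors. CPM values below were scaled by TMM, a normalization that assumes that most genes do not differ. Between 94 counts (Nqo1 in control tumor 2) and 21341 counts (Prdx1 in photoconverted tumor 1) lay behind each value of these genes.

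The genes are spread over the genome. In the GENCODE M21 annotation of build GRCm38, Slc7a11 at chr3:49892526-50443614, Gclc at chr9:77754535-77794485, Gclm at chr3:122245557-122270732 and Gsr at chr8:33652523-33698163 are the glutathione genes. Txnrd1 at chr10:82833951-82897712, Prdx1 at chr4:116685544-116700822 and Srxn1 at chr2:152105516-152111376 are the thioredoxin genes. Chromosome 8, which also holds Gsr, has Nqo1 at chr8:107388225-107403206, Hmox1 at chr8:75093621-75100589 and Osgin1 at chr8:119434124-119446256. All 10 are protein-coding.

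Per length of exon, the genes fell over a wide range of levels. Hmox1, which encodes the inducible heme oxygenase, had the highest mean, 190.4 ± 48.1 CPM per kb (SD, n = 8 tumors). Prdx1, a peroxiredoxin that reduces hydrogen peroxide, followed with 134 ± 32.1 CPM per kb, and Gsr, which returns oxidized glutathione to its reduced form, with 110.2 ± 15.4 CPM per kb. Prdx1 was above Gsr in 5 of 8 tumors, so this order was not stable across tumors, whereas Gsr was above the next gene, Txnrd1, in 8 of 8. Intermediate levels were found for Txnrd1 (41.8 ± 5.68 CPM per kb), Srxn1 (30.1 ± 7.06), Gclc (16.8 ± 1.31), Nqo1 (14.6 ± 6.72) and Gclm (10.2 ± 1.59). Neither Gclc and Nqo1 nor Nqo1 and Gclm kept an order, since the first of each pair was higher in 4 and 5 of 8 tumors. The lowest levels were those of Slc7a11 (4.79 ± 1.16 CPM per kb) and Osgin1 (4.71 ± 1.14 CPM per kb), and Slc7a11 was the higher of both in 3 of 8 tumors. The ranks were the same when length was taken from the longest coding transcript in place of all annotated exons, although the level of Txnrd1 then became 81.7 CPM per kb.

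**Figure D1:**
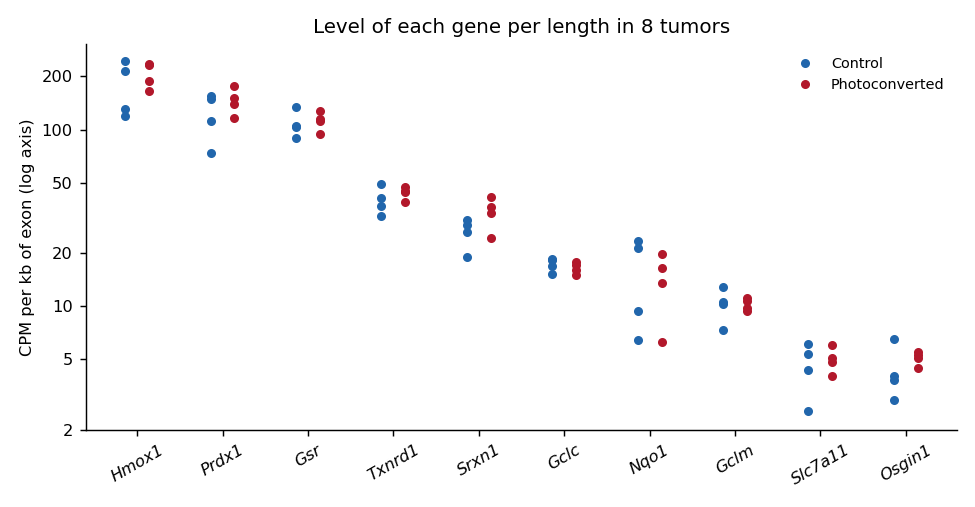
The vertical axis shows CPM per kb of exon on a log scale, and the horizontal axis the 10 genes in order of their mean. Each point is 1 tumor, blue for control and red for photoconverted tumors, and the spread of Nqo1 across tumors is wider than that of its neighbours Gclc and Gclm.

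Between photoconverted and control tumors, 0 of the 10 genes passed 0.05 after Benjamini-Hochberg adjustment of the quasi-likelihood test of edgeR, and 0% of all 14468 genes tested did. At an unadjusted p under 0.05 the count was also 0 of 10, against 2.23% of all genes (322). With the replicate number as a block it was again 0 of 10, against 6.01% of all genes (869). In none of the 10 genes did the CPM of the groups fail to overlap, as they did in 1.33% of all genes tested. The log2 fold change, photoconverted minus control, was above 0 in 8 of the 10 genes, against 46.8% of all genes tested, and below 0 in 2 (Nqo1 and Gclc). The median was 0.13, against -0.01 for all genes tested. The largest difference was the 1.29-fold higher mean of Srxn1, and two-sided exact permutation tests of the 10 genes gave p between 0.171 (Srxn1) and 0.943 (Nqo1), where 4 tumors against 4 allow no p below 0.0286. For 9 genes the 95% interval of the fold lay between 0.737-fold (lower bound of Slc7a11) and 1.75-fold (upper bound of Srxn1), and for Nqo1 it ran from 0.455-fold to 1.86-fold. Adjusted p was 0.999 to 1.00 for all 10 genes in edgeR.

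Glutathione synthesis begins with the import of cystine by Slc7a11 (xCT) and continues with glutamate-cysteine ligase, made of the catalytic subunit Gclc and the modifier subunit Gclm. In the order of tumors 1 to 4, Slc7a11 stood at 83.7, 71.3, 67.0 and 55.8 CPM after light and at 85.0, 35.5, 60.6 and 74.5 CPM without it. The photoconverted tumors lay wholly inside the range of the control tumors, of which tumor 2 was the lowest of all. This gave a log2 fold change of 0.12 (standard error 0.25, 95% interval -0.44 to 0.68), which turned to -0.079 without control tumor 2. Gclc was the steadiest of the 10 genes, at 66.8, 60.2, 56.9 and 64.0 CPM after light and 68.7, 63.5, 57.3 and 69.8 CPM without it. Its highest tumor was 1.23 times its lowest, and in each of the 4 same-numbered pairs the photoconverted tumor was the lower one, with log2 ratios from -0.12 to -0.01. Its log2 fold change of -0.06 (standard error 0.11) had the narrowest interval of the 10, from 0.807-fold to 1.13-fold. Gclm stood at 70.3, 67.2, 59.0 and 61.4 CPM after light and at 66.3, 45.9, 64.5 and 80.9 CPM without it, and both its extremes were control tumors. Its log2 fold change was 0.00 (standard error 0.17, 95% interval -0.37 to 0.37). The ratio of Gclm to Gclc, both per kb of exon, was 0.623 ± 0.0392 in photoconverted and 0.595 ± 0.119 in control tumors (SD, n = 4 each; two-sided exact permutation test, p = 0.771). Control tumor 2 had the lowest ratio, 0.433.

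Gsr, which uses NADPH to recycle glutathione, stood at 307, 317, 261 and 352 CPM in the photoconverted group and at 246, 286, 289.5 and 370.2 CPM in the controls. Tumor 4 was the highest of its group in both arms, and the groups overlapped fully. Gsr thus had a log2 fold change of 0.05 (standard error 0.16, 95% interval -0.30 to 0.40). With 1 tumor left out it lay between -0.028 (without control tumor 1) and 0.18 (without control tumor 4).

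The thioredoxin arm was represented by Txnrd1, the cytosolic thioredoxin reductase, by Prdx1, and by Srxn1, a sulfiredoxin that repairs overoxidized peroxiredoxins. Srxn1 stood at 102, 94.5, 117 and 69.0 CPM after light and at 86.5, 53.8, 74.3 and 81.7 CPM without it. Photoconverted tumors 1 to 3 were thus above every control tumor, whereas photoconverted tumor 4 was below 3 of the 4 controls. The log2 fold change was 0.37 (standard error 0.19, 95% interval -0.07 to 0.81, adjusted p = 0.999 in edgeR). Without photoconverted tumor 4 it was 0.49, and Srxn1 was then among the 5.26% of all genes with an unadjusted p under 0.05 (adjusted p = 0.823 in edgeR). It was 0.24 without control tumor 2 and 0.26 without photoconverted tumor 3. The summed level of 7 neutrophil genes was 93.5, 113, 141 and 47.0 CPM in photoconverted tumors and 37.8 to 61.2 CPM in control tumors. It also had its highest value in photoconverted tumor 3 and lower ones in all controls than in photoconverted tumors 1 to 3. The same held for 6 skeletal muscle genes (336, 551, 1069 and 130.3 CPM, and 133 to 332 CPM in controls). The part of either list in the result was not tested. Txnrd1 stood at 317, 334, 275 and 314 CPM after light and at 229, 289, 260.4 and 350.2 CPM without it, so that 3 of the photoconverted tumors were above all controls but tumor 4. Its log2 fold change was 0.14 (standard error 0.15, 95% interval -0.20 to 0.47), and it lay between 0.048 (without control tumor 1) and 0.26 (without control tumor 4) with 1 tumor left out. Prdx1 stood at 534, 422, 459 and 353 CPM after light and at 474, 224, 455 and 339 CPM without it. It was the only one of the 10 genes that was higher in the photoconverted tumor of all 4 same-numbered pairs, by 0.17, 0.92, 0.01 and 0.06 on the log2 scale, and the second pair, which holds control tumor 2, made up most of its log2 fold change of 0.24 (standard error 0.24, 95% interval -0.30 to 0.79). Without control tumor 2 the log2 fold change of Prdx1 was 0.06. The share of all genes with the same sign in all 4 pairs, as in Prdx1 and Gclc, was not counted.

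Nqo1, which reduces quinones, was the most variable of the genes. Its levels were 30.7, 21.1, 25.5 and 9.70 CPM after light and 36.3, 10.1, 33.0 and 14.5 CPM without it. Each group therefore held both high and low tumors, with a 3.75-fold range over the 8. Its log2 fold change was -0.12 (standard error 0.45, 95% interval -1.14 to 0.90), and it had the opposite sign, 0.12, without photoconverted tumor 4, as it did without control tumor 1 (0.17) or control tumor 3 (0.09).

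Hmox1, which breaks heme down to biliverdin, iron and carbon monoxide and is induced by many stresses, stood at 409.6, 329, 406 and 288 CPM after light and at 374, 209, 229 and 425 CPM without it. Control tumors 2 and 3 were the lowest and control tumor 4 the highest of all 8, with the photoconverted tumors between them. The difference, 0.21 on the log2 scale (standard error 0.25, 95% interval -0.34 to 0.77), was smaller than its error. It was 0.063 without control tumor 2, 0.091 without control tumor 3 and 0.40 without control tumor 4. The summed level of 9 macrophage genes was 505 to 1147 CPM in photoconverted and 399 to 989 CPM in control tumors, and its lowest value was that of control tumor 4, the tumor with the highest Hmox1. Red blood cell genes, a source of heme, summed to 275 to 1760 CPM in photoconverted and 123 to 1809 CPM in control tumors, and the part of either list in Hmox1 levels was not tested. Osgin1, an oxidative stress induced growth inhibitor, stood at 11.9, 14.7, 13.7 and 14.2 CPM after light and at 7.85, 10.2, 10.7 and 17.5 CPM without it. All photoconverted tumors were above control tumors 1 to 3 and below control tumor 4. Its log2 fold change of 0.24 (standard error 0.24, 95% interval -0.30 to 0.77) became 0.51 without control tumor 4, when its groups did not overlap (4.76% of all genes) and its unadjusted p was under 0.05 (3.05% of all genes). Without control tumor 1 it became 0.086.

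**Figure D2:**
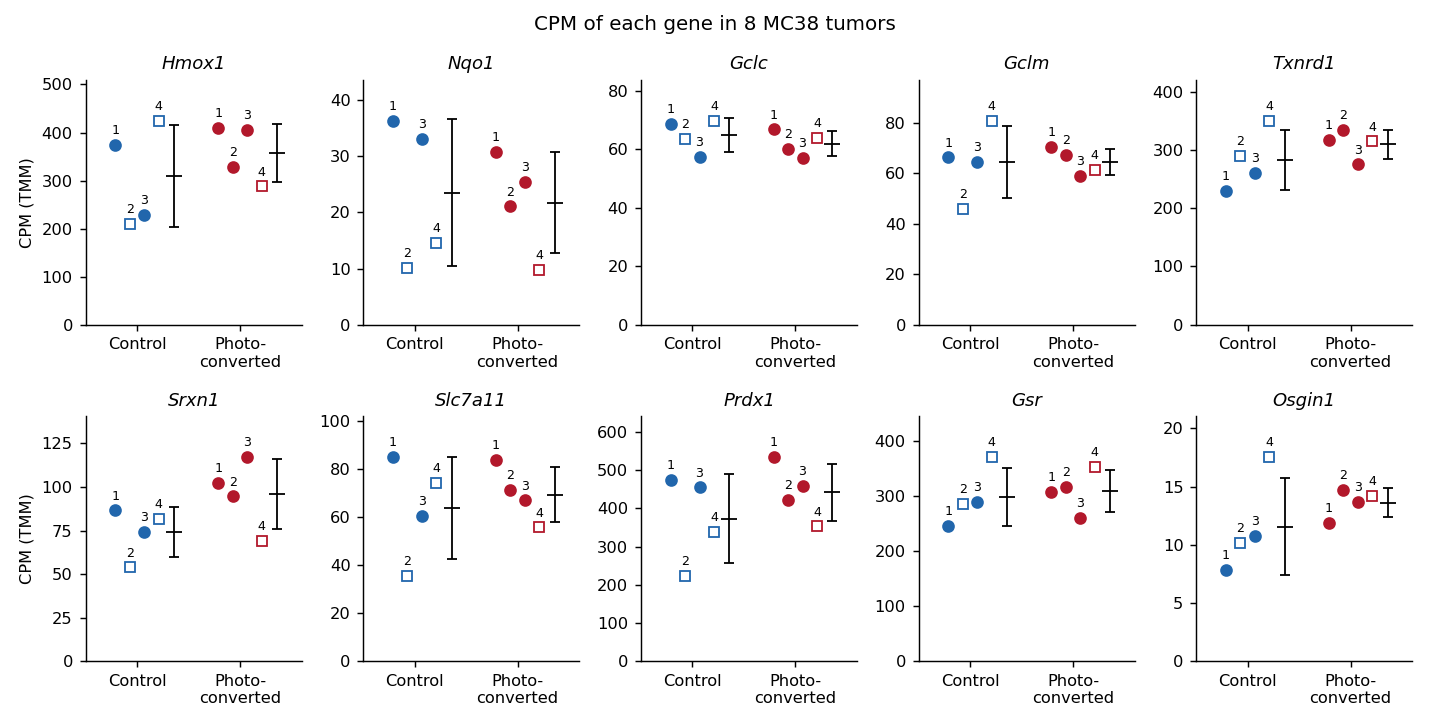
Each panel shows the CPM of 1 gene (vertical axis, from 0) in control (blue) and photoconverted (red) tumors, with the replicate number above each point, and open squares mark the 3 libraries with an Rn45s share above 10%. Black bars are the mean and SD of 4 tumors, and in every panel the groups overlap.

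Control tumor 4 was the highest of the 8 tumors in 6 of the 10 genes (Hmox1, Gclc, Gclm, Txnrd1, Gsr and Osgin1), and the same tumor was the highest in 17.2% of all genes tested. Control tumor 2 was the lowest in 5 (Hmox1, Gclm, Srxn1, Slc7a11 and Prdx1), and in 25.7% of all genes tested.

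**Figure D3:**
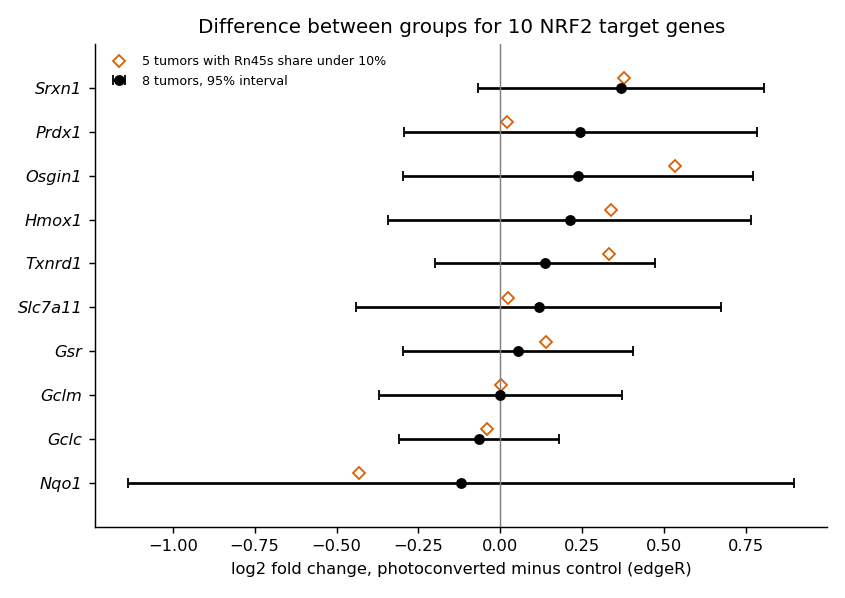
The horizontal axis shows the log2 fold change, photoconverted minus control, for the 10 genes on the vertical axis. Black points with bars are edgeR estimates and 95% intervals from 8 tumors, all of which span 0, and open diamonds are estimates from the 5 tumors with an Rn45s share under 10%, which lie farthest from the black points for Nqo1 and Osgin1.

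A fit without the 3 libraries rich in Rn45s kept photoconverted tumors 1 to 3 and control tumors 1 and 3, of which photoconverted tumor 2, with a share of 9.65%, was close to the limit of 10%. In it, 0 of the 10 genes passed the adjusted threshold in edgeR, against 0.275% of 15252 genes. At an unadjusted p under 0.05 the count was 4 of 10, against 10.5% of all genes in that fit. Srxn1 (log2 fold change 0.38, adjusted p = 0.377 in edgeR), Osgin1 (0.53, adjusted p = 0.383 in edgeR) and Txnrd1 (0.33, adjusted p = 0.422 in edgeR) were higher in photoconverted tumors. Nqo1 was lower (-0.43, adjusted p = 0.429 in edgeR), with 21.1 to 30.7 CPM in the 3 photoconverted tumors and 33.0 and 36.3 CPM in the 2 control tumors. These 4 genes were also those whose groups did not overlap, which was so for 28.4% of all genes among these 5 tumors, and 3 tumors against 2 cannot reach 0.05 in an exact test. The 3 tumors left out included 1 photoconverted tumor and were too few for a comparison.

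The Rn45s share of the library was itself related to some of the genes. In an edgeR fit with the group and the log2 Rn45s share as terms, 3 of the 10 genes were lower with the share at an adjusted p under 0.05, against 22.6% of all genes tested, and 0 were higher, against 23.8%. The count of lower genes is near that of genes in general. That of higher genes is below it, a difference that was not tested. Nqo1 changed by -0.53 on the log2 scale for each doubling of the share (standard error 0.05, adjusted p = 0.000122 in edgeR), a more negative value than in all but 2.74% of genes tested. The 3 libraries with a high share had 9.70 to 14.5 CPM of Nqo1 and the other 5 had 21.1 to 36.3 CPM. Prdx1 changed by -0.24 for each doubling (standard error 0.04, adjusted p = 0.00173 in edgeR), with 224 to 353 CPM in libraries with a high share and 422 to 534 CPM in the others. How many of all genes separate these libraries in this way was not counted, so the ranges are not a trait of these 2 genes. The third gene called, Srxn1, changed by -0.15 (standard error 0.05, adjusted p = 0.0411 in edgeR). With 1 tumor left out, Srxn1 was called only without control tumor 3 (adjusted p = 0.0442 in edgeR) or control tumor 4 (adjusted p = 0.00205 in edgeR). Its highest adjusted p in these edgeR fits was 0.146, without photoconverted tumor 4. Slc7a11 (-0.18, adjusted p = 0.0713 in edgeR) and Osgin1 (0.16, adjusted p = 0.114 in edgeR) changed by as much as Srxn1 and were not called. The smallest change was that of Gclc (0.01, standard error 0.03, adjusted p = 0.814 in edgeR). Within the 5 tumors of a low share the values were -0.33 for Nqo1 (adjusted p = 0.274 in edgeR), -0.18 for Prdx1 (adjusted p = 0.420 in edgeR) and -0.20 for Srxn1 (adjusted p = 0.379 in edgeR), in a fit in which 0 of all 15252 genes were called in either direction. With library sizes alone, without TMM, a scaling that moved the median of all genes to -0.18, 7 of the 10 genes and 7797 of all 14468 were called lower. Without control tumor 4 there were 6 of the 10 and 3176 of all 14776. Without control tumor 2, 2 of the 10 were called lower and 3 higher, where 3524 and 3635 of all 14778 genes were. With the replicate number as a block beside the share, 0 of the 10 genes were called, while of all 14468 genes 1 was called (Rn45s itself), and the values were -0.59 for Nqo1 (adjusted p = 0.119 in edgeR), -0.35 for Prdx1 (adjusted p = 0.135 in edgeR) and -0.25 for Srxn1 (adjusted p = 0.400 in edgeR). Within same-numbered pairs the share differed most in pair 2 (9.65% and 35.7%), on which the blocked values mainly rest. What the share reflects was not tested.

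**Figure D4:**
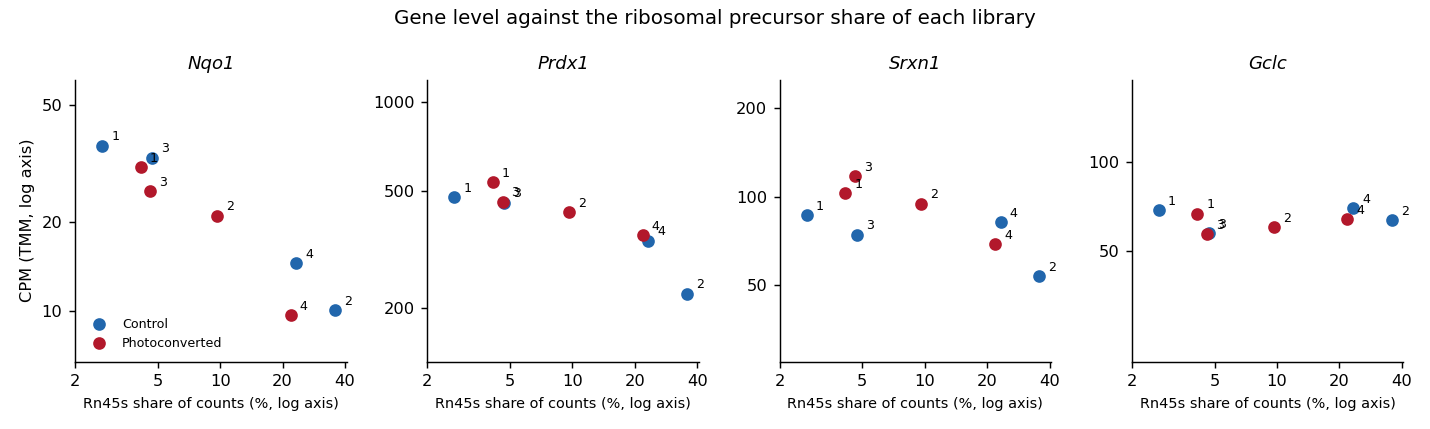
Each panel plots the CPM of 1 gene against the Rn45s share of the library in percent, both on log axes that span the same fold range, with the replicate number beside each point (blue control, red photoconverted). Nqo1 and Prdx1 are lowest in the 3 libraries with shares of 21.9% to 35.7%, Srxn1 less clearly so, and Gclc changes least.

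Over the 8 tumors, the most similar pair among the 10 genes was Txnrd1 and Gsr (Pearson's r = 0.877 of log2 CPM), and the gene least like the others was Gclc, whose best partner, Hmox1, reached r = 0.388. Among all 14468 genes the one closest to Srxn1 was Lcn2, a neutrophil and acute phase protein that binds siderophores (r = 0.979, Spearman's rho = 1.00). Gclm was closest to Sod1, the cytosolic superoxide dismutase (r = 0.978), and Slc7a11 to Rpl27, a ribosomal protein gene (r = 0.991). Nqo1 was closest to Sec62 (r = 0.994) and Prdx1 to Tpp2 (r = 0.996), yet 1106 and 1268 genes had an r above 0.9 with them, compared with 15 for Hmox1. For the other genes the closest were Eps8 (Hmox1), Pogk (Gclc), Tnnc1 (Txnrd1), Fancd2 (Gsr) and Scaf4 (Osgin1), with r of 0.917 to 0.989. These are the highest of many values over the same 8 libraries, which differ in depth and Rn45s content, and they serve as a description without a test.

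Upstream of the targets, 15 genes that encode NRF2, its partners, its inhibitors or its competitors were all tested. In edgeR, 0 of them had a p under 0.05 before adjustment (2.23% of all genes) or after it (0%), 7 had a log2 fold change above 0 and 8 below, and the median was -0.06. Nfe2l2 itself stood at 108, 84.5, 106 and 59.0 CPM after light and at 93.5, 41.0, 89.4 and 68.1 CPM without it, with a log2 fold change of 0.29 (standard error 0.28). The smallest p-values were those of the repressor Bach1 (log2 fold change 0.31, standard error 0.22), Keap1 (-0.14, standard error 0.11) and the small MAF gene Mafk (0.29, standard error 0.23). Mafk had 63.4 to 77.8 CPM in photoconverted tumors, inside the 38.4 to 83.1 CPM of control tumors.

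A further 34 known NRF2 targets, among them genes of NADPH supply (G6pdx, Pgd, Me1), iron storage (Fth1, Ftl1) and detoxification, gave 33 tested genes. None of the 33 had a p under 0.05 in edgeR before adjustment (2.23% of all genes) or after it. The log2 fold change was above 0 in 13 and below 0 in 20, and the median was -0.01, as was that of all genes at 2 decimals. The smallest p-values were those of Ugdh, which makes UDP-glucuronic acid (0.22, standard error 0.12), the heme transporter Slc48a1 (-0.25, standard error 0.15) and the carbonyl reductase Cbr1 (-0.27, standard error 0.18).

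Of 30 other antioxidant enzymes, 29 were tested and 1 had an unadjusted p under 0.05 (against 2.23% of all genes), the mitochondrial superoxide dismutase Sod2. Sod2 stood at 78.7, 78.6, 82.7 and 70.5 CPM after light and at 67.8, 63.8, 67.7 and 65.2 CPM without it. The groups did not overlap, as in 1.33% of all genes. A two-sided exact permutation test that ignores the pairs must then give its smallest possible p, 0.0286, and adds nothing to the lack of overlap. In edgeR, Sod2 differed by 0.23 on the log2 scale (standard error 0.10, adjusted p = 0.999). In the photoconverted group, summed neutrophil genes were likewise highest in tumor 3 and lowest in tumor 4, as were all other cell type marker lists but fibroblasts. Neutrophil genes stood at 93.5, 113, 141 and 47.0 CPM after light and at 61.2, 43.6, 51.1 and 37.8 CPM without it. Photoconverted tumor 4 was thus below control tumors 1 and 3 in neutrophil genes and above every control in Sod2. The part of any cell type in the Sod2 levels was not tested. Sod2 is also a textbook target of NF-kB. Next in the list were Glrx, a glutaredoxin (0.36, standard error 0.18), and Msrb2, a methionine sulfoxide reductase at 0.451 mean CPM in photoconverted and 0.703 in control tumors (-0.65, standard error 0.38). Across the 29 genes, 14 log2 fold changes were above 0 and 15 below, with a median of -0.01.

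Among 22 genes of heme and iron handling, 20 were tested, 0 had a p under 0.05 in edgeR before adjustment (2.23% of all genes) or after it, and the median log2 fold change was -0.05. Hp, the haptoglobin gene, stood at 17.8, 65.0, 61.7 and 22.1 CPM after light and at 14.2, 18.6, 32.8 and 17.3 CPM without it, so that 2 photoconverted tumors were high and the others lay within the control range (log2 fold change 1.01, standard error 0.45). In the same 2 tumors, photoconverted 2 and 3, summed epidermal genes reached 16.0 and 16.7 CPM, against 1.03 to 2.45 CPM in the other 6. Neutrophil genes (113 and 141 CPM), adipocyte genes (26.0 and 37.2 CPM) and skeletal muscle genes (551 and 1069 CPM) were also highest in these 2 tumors. The part of any of these lists in the Hp levels was not tested. The iron exporter Slc40a1 (0.72, standard error 0.37) and Urod, of heme synthesis (-0.19, standard error 0.13), followed. The constitutive heme oxygenase gene Hmox2 averaged 49.9 ± 2.30 CPM after light and 49.7 ± 1.40 CPM without it (SD, n = 4 each), a log2 fold change of 0.01.

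Pathways that share targets with NRF2 were set beside it. Of 20 tested targets of ATF4, the transcription factor of amino acid stress, which also drives Slc7a11, 1 had an unadjusted p under 0.05, against 2.23% of all genes. This was Atf3 (log2 fold change 1.54, standard error 0.44, adjusted p = 0.999 in edgeR), an immediate early stress gene, at 70.6, 43.8, 96.7 and 18.0 CPM after light and 14.8 to 25.4 CPM without it. The next were Vldlr (-0.30, standard error 0.22) and Ddit4 (-0.34, standard error 0.26), and the median of the list was -0.06, which lay between -0.21 (without photoconverted tumor 4) and 0.14 (without control tumor 4) with 1 tumor left out. Of 18 targets of HSF1, the heat shock factor, 17 had a log2 fold change above 0 (46.8% of all genes) and 13 had an unadjusted p under 0.05 (2.23% of all genes), while 0 passed the adjusted threshold, and the median was 0.68. The smallest p-values there were those of the chaperone genes Hspb1 (log2 fold change 3.55, standard error 0.57), Hsph1 (1.81, standard error 0.41) and Cryab (1.62, standard error 0.37). The groups did not overlap in 3 of the 18 genes, against 1.33% of all genes. Hspb1, 1 of these, had 11.9 CPM in photoconverted tumor 4 and 2.66 to 6.47 CPM in controls. Cryab, another, had 12.1 CPM in that tumor and 4.14 to 9.45 CPM in controls. Hsph1 stood at 914, 718, 1097 and 256 CPM after light and at 164 to 308 CPM without it, so that for this gene photoconverted tumor 4 lay within the control range. In the photoconverted group, summed skeletal muscle genes were likewise highest in tumor 3 and lowest in tumor 4 (336, 551, 1069 and 130.3 CPM). All other cell type marker lists but fibroblasts had the same highest and lowest tumor in that group. Control tumors 1 to 4 had 236, 265, 332 and 133 CPM of muscle genes. Control tumor 4 was thus the lowest control in muscle genes and the highest control in Hsph1. The part of any cell type in the values of the HSF1 list was not tested. The members of that list were chosen with their values in these tumors known, so its counts are not independent evidence.

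**Figure D5:**
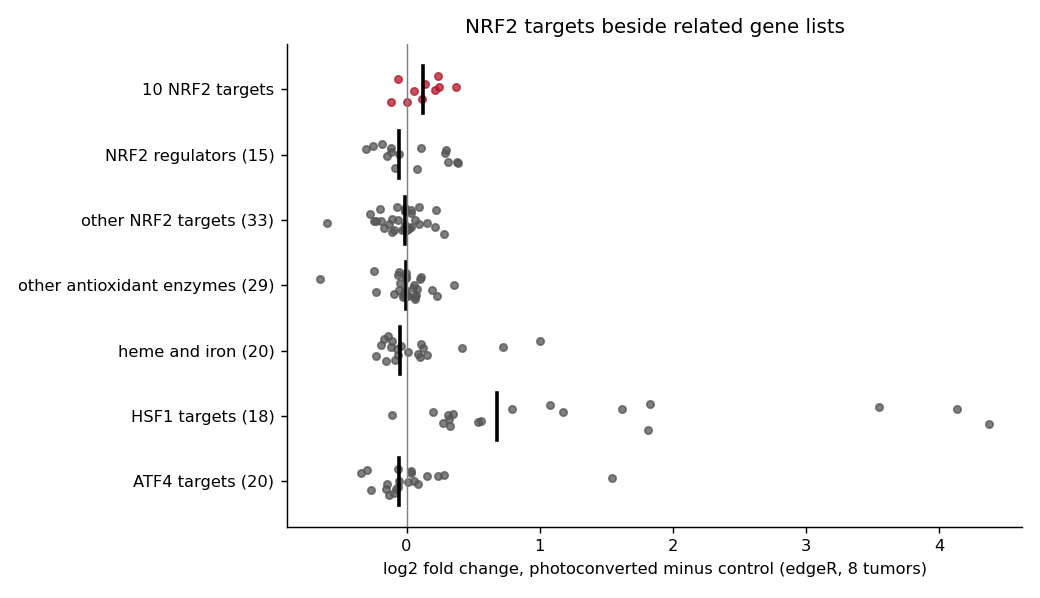
The horizontal axis shows the log2 fold change, photoconverted minus control, from edgeR on 8 tumors, and each row 1 gene list with its number of tested genes in brackets. Points are genes (with vertical jitter) and black bars are medians, which lie between -0.06 and 0.13 for every list except HSF1 targets (0.68).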

How the data were processed

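Bulk RNA-seq of 8 tumors, 4 per group, was analysed. Raw counts for each gene symbol were deposited by the authors, with a table of normalized signal values, and these equaled the counts divided by 1 size factor per tumor (0.416 to 1.77) and lacked genes with at most 1 count in all. The submitters' processing notes name HISAT2, featureCounts, DESeq2 and build mm10 (GRCm38), with no versions. The library kit is a stranded total RNA kit, SMARTER per the labels and TruSeq per the methods of the study. A letter in each label linked its tumor to a column.

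Counts were tested with edgeR 4.0.16 (TMM, filterByExpr by group, glmQLFit and glmQLFTest, threshold 0.05) in R 4.3.3. DESeq2 1.42.0, limma 3.58.1 (log2 of the normalized values plus 1), other scalings, no filter, a replicate block, Rn45s settings and leaving out each tumor were alternatives, and the Rn45s share fit and its alternatives were added after the data were seen. Log2 CPM used a prior count of 2. The procedures were tested on simulated data. Exon lengths came from GENCODE M21, and promoters from RefSeq.

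Replicate numbers were shared by both groups in the labels. Deviations from the group means correlated with r of 0.107 to 0.623 in all 4 same-numbered pairs (mean -0.134 between other numbers, of which the highest was 0.482), so the numbers were treated as pairs, although the labels state no reason for it. The fits and their intervals carried no block unless it is named, and the permutation tests ignored the replicate numbers. No 2 libraries of a group differed by as little as sampling noise (smallest chi-square per degree of freedom, 23.8).

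The genes and lists were chosen with earlier results of these data known. Named genes were the 10 genes, up to 3 genes of each list with the smallest p, and the gene with the highest r for each of the 10. Nfe2l2 and Hmox2 were named as the factor and the constitutive counterpart, G6pdx, Pgd, Me1, Fth1 and Ftl1 as examples of their list, and Mafg, Sqstm1 and Cat after their values were seen. Each value of the 10 genes rests on at least 94 counts, and p-values measure only the spread between these tumors.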

Additional observations from a re-analysis of the deposited data

Results flagged for a closer look

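In 58 groups of 4 tumors (the 10 genes, the ratio of Gclm to Gclc and the 3 genes with the smallest p of each of 6 lists), 2 held a tumor far from the other 3, where chance gives 2.9. Bach1 had 39.5 CPM in control tumor 4 against 61.2 CPM in the nearest control tumor. Ugdh had 75.5 CPM in photoconverted tumor 4 against 96.3 CPM in the nearest photoconverted tumor. Both tumors had an Rn45s share above 10%. In the fit over all 8 tumors the change per doubling of the share was -0.13 for Bach1 (adjusted p = 0.154 in edgeR). It was -0.078 for Ugdh (adjusted p = 0.0611 in edgeR). What set these 2 values apart was not tested.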

How the results depend on the processing

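Over 17 alternatives, 0 of the 10 genes reached an adjusted p under 0.05. Over all genes the count of calls went from 0 to 17 with DESeq2's Wald test and to 42 among the 5 tumors whose Rn45s share was under 10%, and lay between 0 and 11 with 1 tumor left out (11 without photoconverted tumor 4). The count of all genes at an unadjusted p under 0.05 went from 322 to 643 without a filter, 869 with the replicate block, 1010 with the log2 Rn45s share as a covariate and 1604 in those 5 tumors, and lay between 144 and 777 with 1 tumor left out. Of the 10 genes, 1 (Srxn1) had an unadjusted p under 0.05 with the Rn45s covariate and 4 in the 5 tumors, where the groups of 4 genes did not overlap. With 1 tumor left out, both counts lay between 0 and 1 (Srxn1 without photoconverted tumor 4, where 6.63% of all genes did not overlap, and Osgin1 without control tumor 4, where 4.76% did not). The replicate block changed no call between the groups. With it the log2 fold change was -0.06 for Nqo1 (standard error 0.25) and 0.29 for Prdx1 (standard error 0.16).

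Signs changed for genes with small differences. Gclc went to 0.015 with library sizes alone, a scaling that moved the median of all genes to 0.06, and Gclm to -0.013 with the Rn45s covariate. With 1 tumor left out, log2 fold changes lay between -0.36 and 0.17 for Nqo1, -0.13 and 0.13 for Gclm, -0.079 and 0.29 for Slc7a11, and -0.028 and 0.18 for Gsr, and the cause was not tested. In the 5 tumors the list medians moved to 0.10 for NRF2 regulators and 0.055 for heme and iron genes, and that of ATF4 targets to 0.11, and with 1 tumor left out that of antioxidant enzymes lay between -0.017 and 0.072. The number of the 10 genes lower with the Rn45s share was 7 with library sizes alone, where 7797 of all 14468 genes were lower, and 0 in the 5 tumors, where 0 of all 15252 were, and also 0 with the replicate block, where 0 of all 14468 were, and it lay between 2 and 6 with 1 tumor left out, while the number higher lay between 0 and 3. The lowest counts, 94 for Nqo1 and 95 for Osgin1, were both those of control tumor 2, and values of that tumor are the least precise.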

Other observations

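Within the NRF2 machinery, the relation to the Rn45s share differed in sign between partners, a pattern seen after the data were examined and given as values. With the replicate number as a block beside the share, 1 of all 14468 genes was called, Rn45s itself. For each doubling of the share, Nfe2l2 changed by -0.29 (standard error 0.05, adjusted p = 0.00112 in edgeR), whereas Mafg, which encodes a small MAF partner, changed by 0.39 (standard error 0.04) and the autophagy receptor Sqstm1 by 0.14 (standard error 0.04). Mafg had 75.2, 94.8 and 69.9 CPM in the 3 libraries with a high share (photoconverted tumor 4 and control tumors 2 and 4) and 34.5 to 44.6 CPM in the other 5. How many of all genes separate these libraries was not counted. Cat, which encodes catalase, changed by -0.25 (standard error 0.03), in a list of 29 antioxidant enzymes of which 8 were called lower and 8 higher. Across the 15 regulators, 3 were called lower and 6 higher with the share, and across 33 further targets 7 and 7, against 22.6% and 23.8% of all genes.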
